A study of Mus musculus with 6 samples.

Results

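The Slc25 genes encode the mitochondrial carrier family, and chromatin accessibility at these genes was read from a single ATAC-seq peak list of mouse kidney. ATAC-seq inserts sequencing adapters into open DNA with the Tn5 transposase, so that read pile-ups mark accessible promoters and enhancers. Members were the protein-coding genes of the GENCODE M39 annotation named Slc25a followed by a number, which gave 47 of 21757 coding genes, on 19 chromosomes. The kidney libraries carried the label WT (3 libraries, 2 of batch 1 and 1 of batch 2) or Acly cKO (3 libraries, 2 of batch 4 and 1 of batch 5), and both groups had the treatment label Control. In the Acly cKO mice a floxed Acly gene, which encodes the ATP citrate lyase, was removed by Ksp-Cre in tubule epithelium, so other cells of the kidney kept the gene, and the control mice were floxed littermates without Cre. The study also used WT libraries that had been deposited earlier, and the peak list does not say which libraries are in the pool. The labels call the tissue kidney and the methods name the cortex. Mice of the injury models were 6 to 8 weeks old, and no age was given for the sequenced mice themselves in the sources used here. Batch and genotype cannot be told apart, since no batch holds both genotypes.

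All values below come from 1 peak call over pooled libraries. No value per library or per genotype was available, and no difference between WT and Acly cKO could be measured. A gene with few open cells and a gene that is partly open in many cells cannot be told apart in such a pool of mixed kidney cells.

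Members of the family sit in the inner mitochondrial membrane, with a few exceptions in other membranes, and exchange metabolites, nucleotides, cofactors and ions between the matrix and the cytosol. The citrate carrier Slc25a1 sends citrate out of the matrix. Outside the mitochondria, ATP citrate lyase turns it into the acetyl-CoA used for lipid synthesis and histone acetylation. Kidney tubules depend on oxidative metabolism, in which the ADP/ATP translocases, the phosphate carrier and the carnitine-acylcarnitine carrier have central roles.

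The starts of carrier genes differed in both accessibility and sequence, and 8 of them are shown here because the results below turn on them. Each runs 5′ to 3′ on the strand of the gene in GRCm39 and covers 120 bases that end just past the canonical transcription start site (TSS), the start of the transcript that Ensembl marks as canonical. Capitals mark exact matches on either strand to the CCAAT box (CCAAT), the GC box (GGGCGG), the E-box (CACGTG) or an ETS site (CCGGAAGT).
Slc25a1 chr16:17746236-17746355 (minus strand): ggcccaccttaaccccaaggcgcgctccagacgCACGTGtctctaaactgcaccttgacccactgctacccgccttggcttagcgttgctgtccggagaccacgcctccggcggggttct
Slc25a42 chr8:70664957-70665076 (minus strand): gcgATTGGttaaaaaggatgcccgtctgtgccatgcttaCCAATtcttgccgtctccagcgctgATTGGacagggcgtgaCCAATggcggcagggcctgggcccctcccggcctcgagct
Slc25a30 chr14:76024468-76024587 (minus strand): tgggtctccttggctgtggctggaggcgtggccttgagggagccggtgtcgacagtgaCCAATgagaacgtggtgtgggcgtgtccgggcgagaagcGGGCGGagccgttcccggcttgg
Slc25a34 chr4:141351142-141351261 (minus strand): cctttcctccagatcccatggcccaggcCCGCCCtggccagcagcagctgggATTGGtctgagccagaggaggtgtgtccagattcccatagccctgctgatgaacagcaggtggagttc
Slc25a40 chr5:8472699-8472818 (plus strand): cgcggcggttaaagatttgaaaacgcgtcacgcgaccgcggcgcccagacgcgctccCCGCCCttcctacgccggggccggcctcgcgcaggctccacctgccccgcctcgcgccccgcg
Slc25a20 chr9:108539187-108539306 (plus strand): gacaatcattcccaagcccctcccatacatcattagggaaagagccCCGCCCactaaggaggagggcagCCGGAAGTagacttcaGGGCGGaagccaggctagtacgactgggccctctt
Slc25a41 chr17:57348645-57348764 (minus strand): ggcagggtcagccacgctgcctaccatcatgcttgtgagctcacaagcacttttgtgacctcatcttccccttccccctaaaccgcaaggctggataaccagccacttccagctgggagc
Slc25a31 chr3:40663175-40663294 (plus strand): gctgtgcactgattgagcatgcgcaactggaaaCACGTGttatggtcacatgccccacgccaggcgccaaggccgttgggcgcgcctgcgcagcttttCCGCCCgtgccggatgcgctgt
The start of the coenzyme A carrier gene Slc25a42, which had the highest value of all member starts, held 4 CCAAT boxes in this stretch, in both orientations, with their first bases 107, 71, 46 and 30 bases before the TSS. The Slc25a1 stretch held an E-box that began 77 bases before the TSS. The Slc25a31 stretch held an E-box and a GC box, while the Slc25a41 stretch held no match to any of the 13 motifs searched. The Slc25a20 stretch held an ETS site between 2 GC boxes.

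Nearly every carrier gene had accessible chromatin in its kidney window, and most had it at their own start. The window ran from 3 kb upstream of the gene to its end, and it overlapped at least 1 called interval in 46 of 47 members, beside 83.2% of all coding genes. An interval came within 1 kb of the canonical TSS in 44 of 47 members, beside 75.8% of all coding genes. In all, 442 distinct intervals of 279569 lay in the windows of members. Of these, 44 (9.95%) also reached into the window of another coding gene, from the family or not.

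The height of an interval was taken as the fold enrichment of its highest summit over the background of the caller. Below 20-fold, 100% of all fold enrichments were whole multiples of a step of 0.0655 within a tolerance of 0.02 steps, where 4% would be so by chance. The counting intervals below take 1 step as 1 read, at a confidence level of 95%, and cover counting error only, since the pool has no replicate error. The fold enrichment of the strongest interval reached 20-fold in 40 of 47 members, beside 55.3% of all coding genes. The median over members was 39.5-fold, beside 24.3-fold over all coding genes. The -log10 q of these summits, which follows the fold enrichment one-to-one in this list, ran from 4.28 in Slc25a2 to 2981 in Slc25a41.

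The strongest interval did not always belong to the carrier gene, because these intervals were wide, from 207 to 17540 bp with a median of 4532 bp, and could span neighbouring genes. The strongest summit lay within 1 kb of the own TSS in 35 members and within 150 bp of it in 24. The methods give a read shift of 100 bp for the peak caller without a clear sign, so summit distances of that size or less are uncertain. It lay nearest to the TSS of another coding gene in 6 members. A second value, the highest summit within 1 kb of the canonical TSS of the member itself, is therefore given as the value at the own TSS. This value was at least 20-fold in 37 of 47 members, beside 47.0% of all coding genes, with a median of 33.5-fold beside 17.0-fold. The members next to this threshold were Slc25a53 at 22.3-fold and Slc25a48 at 22.1-fold above it, and Slc25a24 at 19.5-fold and Slc25a22 at 18.1-fold below it. Of all members, 39 were above the median of all coding genes and 8 were in the top decile of all coding genes.

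**Figure D1:**
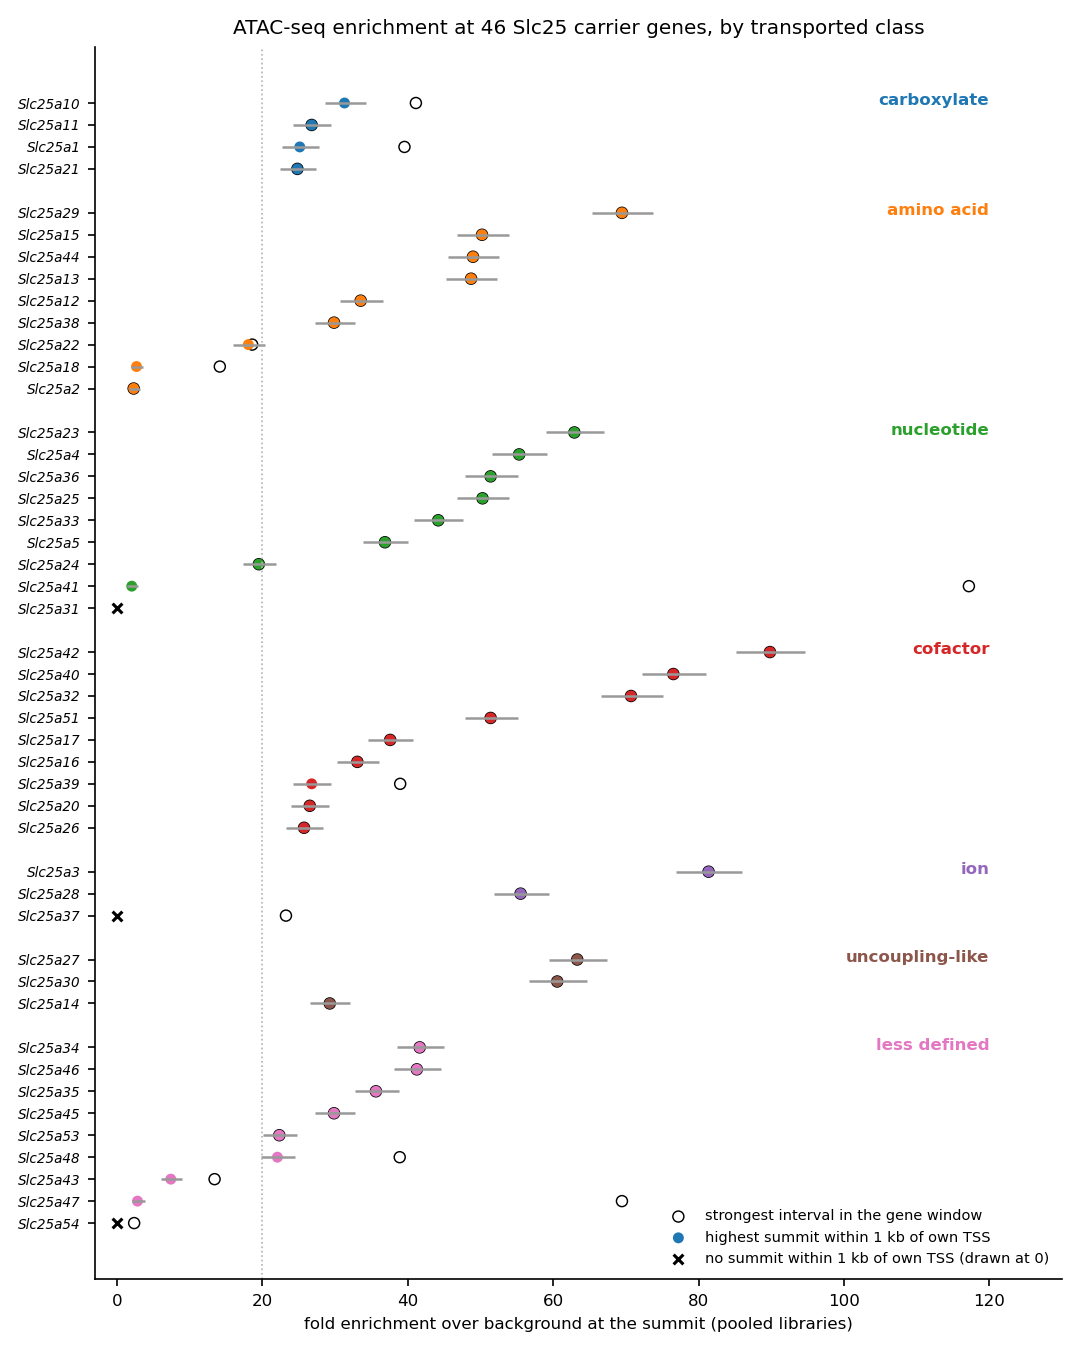
Fold enrichment over background in the pooled kidney libraries (linear axis) for 46 of the 47 Slc25 genes, grouped by transported class. Filled points are the highest summit within 1 kb of the own TSS with the 95% counting interval as a grey bar, open circles are the strongest interval in the gene window, crosses mark the 3 members with no summit at their own TSS, and the dotted line is 20-fold. The open circles of Slc25a41 (117-fold) and Slc25a47 (69.5-fold) stand far to the right of their filled points (2.03-fold and 2.82-fold).

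Carrier starts are set here beside other solute carriers, which mostly work in the plasma membrane, and beside mitochondrial ribosomal genes. An interval within 1 kb of the TSS was not particular to the Slc25 genes. Its share was 93.6% in them, 93.1% in other Slc genes and 98.7% in mitochondrial ribosomal genes. Any interval in the window was found in 97.9%, 98.7% and 98.7% in that order. At the own TSS the median of 319 other Slc genes was 16.8-fold, and 43.6% of them reached 20-fold (95% Wilson interval 38.2% to 49.1%). The same share was 78.7% in the Slc25 genes (65.1% to 88.0%) and 82.1% in 78 mitochondrial ribosomal genes (72.1% to 89.0%), whose median was 31.6-fold. These shares are descriptions of 1 pool, and the sets were not tested against each other. The number of intervals per gene had a median of 8 in Slc25 genes, 8 in other Slc genes, 4 in mitochondrial ribosomal genes and 4 in all coding genes. Median gene lengths were 23.9, 31.3, 8.09 and 19.2 kb in that order.

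**Figure D2:**
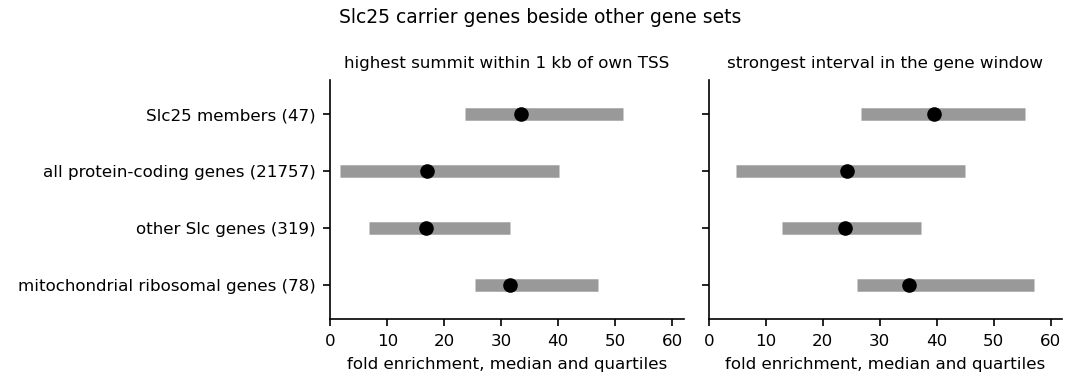
Fold enrichment at the own TSS (left) and in the strongest interval of the gene window (right) for 4 gene sets, with the median as a point, the quartiles as a grey bar and the number of genes in parentheses; a gene without a summit counts as 0. The median of Slc25 genes lies at 33.5-fold (left) and 39.5-fold (right), beside 17.0-fold and 24.3-fold for all coding genes.

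The carboxylate carriers, the group that moves citrate and other acids of the citric acid cycle, had moderate and closely grouped values. All 4 reached 20-fold at the own TSS, beside 78.7% of all members and 47.0% of all coding genes. Their values ran from 24.8-fold to 31.3-fold, with a median of 26.0-fold. Slc25a1, which exports citrate in exchange for malate, stood at 25.1-fold (95% counting interval 22.7 to 27.8), with the summit 125 bp downstream of the TSS and the E-box of the stretch printed above on its other side. The gene spans only 3171 bp on the minus strand of chromosome 16 (17743075 to 17746245). A single interval of 10861 bp with 26 summits covered the whole gene. The highest of these summits, 39.5-fold (36.5 to 42.8), lay 6406 bp downstream of the Slc25a1 TSS, past the end of the gene and 65 bp from the start of the long non-coding RNA Gm59774. The value of the interval that the window rule gives for Slc25a1 is therefore not one of its promoter.

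The other carboxylate carriers had values close to that of Slc25a1. Slc25a10, which exchanges malate or succinate for phosphate, was at 31.3-fold (28.6 to 34.2), 4 bp from its TSS, with a higher summit of 41.1-fold 2248 bp upstream. Slc25a11, the oxoglutarate carrier of the malate-aspartate shuttle, was at 26.8-fold (24.2 to 29.5). Slc25a21, the oxodicarboxylate carrier, was at 24.8-fold (22.4 to 27.4). The counting intervals of Slc25a1, Slc25a11 and Slc25a21 overlapped, so their order was not resolved. The Slc25a11 summit lay 409 bp upstream of its canonical TSS but 1 bp from a further annotated start of Slc25a11. It was 223 bp from the TSS of Rnf167, with which Slc25a11 shares a divergent start.

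Among the genes that handle citrate on either side of the carrier, high values were common. In a list of 13 such genes, 10 were at least 20-fold at the own TSS, beside 47.0% of all coding genes. Their median was 50.2-fold, beside 17.0-fold over all coding genes. Acly itself was at 50.2-fold, the citrate synthase gene Cs at 64.5-fold and the malate dehydrogenase gene Mdh1 at 96.4-fold. The plasma membrane citrate transporters were lowest, with Slc13a2 at 17.7-fold, Slc13a5 at 11.5-fold and Slc13a3 at 8.45-fold. The Slc25a1 value stood below those of Acly, Cs and Mdh1 and above that of the malic enzyme gene Me1 at 21.1-fold. The peak list does not separate the genotypes, so the Acly value is no check of its deletion.

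Amino acid carriers ranged from among the highest to among the lowest values of the family. In this group of 9 genes, 6 were at least 20-fold at the own TSS, beside 47.0% of all coding genes. The group median was 33.5-fold. Slc25a29, the carrier of basic amino acids, was highest at 69.5-fold (65.3 to 73.8). Slc25a15, the ornithine carrier of the urea cycle, was at 50.2-fold (46.7 to 53.9), and its paralog Slc25a2 was at 2.29-fold (1.60 to 3.19), a ratio of 21.9. Slc25a44, which imports branched-chain amino acids, was at 49.0-fold, and Slc25a38, the glycine carrier of heme synthesis, at 29.9-fold.

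Paralogs that carry the same amino acid were unequal. Of the aspartate-glutamate carriers, Slc25a13 (citrin) was at 48.7-fold (45.3 to 52.3) and Slc25a12 (aralar) at 33.5-fold (30.7 to 36.6), with no overlap of the counting intervals. Of the glutamate carriers, Slc25a22 was at 18.1-fold (16.0 to 20.3) and Slc25a18 at 2.68-fold (1.93 to 3.64). Slc25a18 had a stronger interval 1234 bp upstream of its TSS, at 14.1-fold (12.3 to 16.2), and another of 13.7-fold in intron 6. Slc25a22 lay within 1 interval of 17540 bp with 55 summits, the widest strongest interval of any member. Its highest summit, 18.6-fold, was 2 bp from the TSS of Pidd1.

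Nucleotide carriers were high with the exception of 3 genes. In this group of 9, 6 reached 20-fold at the own TSS, beside 47.0% of all coding genes. The group median was 44.2-fold. The ADP/ATP translocases, which hand matrix ATP to the cytosol, differed by isoform. Slc25a4 was at 55.3-fold (51.7 to 59.2) and Slc25a5 at 36.9-fold (33.9 to 40.0), a ratio of 1.50. Slc25a5 lies on the X chromosome and Slc25a4 on chromosome 8, and an effect of X copy number on these values was not tested. Slc25a31, the isoform of the germ line, was the 1 member with no interval in its window at all.

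The calcium-regulated ATP-Mg/phosphate carriers, which load adenine nucleotides into the matrix, spread more widely. Slc25a23 was at 62.9-fold (59.0 to 67.0), Slc25a25 at 50.3-fold (46.8 to 54.0) and Slc25a24 at 19.5-fold (17.4 to 21.9), and none of these intervals overlapped. The Slc25a23 summit lay 544 bp upstream of its TSS and 287 bp from that of Crb3 on the other strand. That of Slc25a24 lay 809 bp downstream of its TSS and 207 bp from the start of the non-coding RNA Gm19391. Slc25a41, the short relative that lacks the calcium-binding part, was at 2.03-fold (1.38 to 2.88) at its own TSS. The window rule gave Slc25a41 the highest value of the family, 117-fold (112 to 123), but that summit lay 119 bp from the TSS of Khsrp and 9948 bp downstream of the TSS of Slc25a41. The pyrimidine nucleotide carriers Slc25a36, at 51.4-fold (47.9 to 55.1), and Slc25a33, at 44.2-fold (40.9 to 47.7), were separated by little, a ratio of 1.16, though their intervals did not meet.

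Cofactor carriers all had accessible starts, as had the smaller carboxylate and uncoupling-like groups. All 10 were at least 20-fold at the own TSS, beside 78.7% of all members and 47.0% of all coding genes. Their values ran from 25.7-fold to 89.8-fold, with a median of 44.5-fold. Slc25a42, the coenzyme A carrier, had the highest own-TSS value of the family, 89.8-fold (85.1 to 94.7), 110 bp upstream of its TSS. The glutathione carriers were unequal, with Slc25a40 at 76.5-fold (72.2 to 81.1) and Slc25a39 at 26.8-fold (24.2 to 29.5), a ratio of 2.86. The Slc25a40 summit lay 10 bp from its own TSS and 3 bp from that of Dbf4, which starts on the other strand, so it cannot be assigned to either gene. Slc25a39 had a higher summit, 39.0-fold, 1049 bp upstream of its TSS and 122 bp from the start of the non-coding RNA Gm57400.

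Further cofactor carriers followed in the order of their values. Slc25a32, linked to folate and FAD, was at 70.7-fold (66.6 to 75.1) and shared a divergent start with Dcaf13. The NAD carrier Slc25a51 was at 51.4-fold. Slc25a17, the peroxisomal carrier, was at 37.6-fold and Slc25a16, linked to coenzyme A, at 33.1-fold. The lowest of the group were Slc25a20, the carnitine-acylcarnitine carrier of fatty acid oxidation, at 26.5-fold (24.0 to 29.2) and Slc25a26, which imports S-adenosylmethionine, at 25.7-fold (23.2 to 28.4).

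Of the ion carriers, the phosphate carrier Slc25a3 was at 81.4-fold (76.9 to 86.0), the second highest own-TSS value. The iron importers, the mitoferrins, could not be compared at their starts, since the Slc25a37 start lies in duplicated sequence, as described below. Slc25a28 was at 55.5-fold (51.8 to 59.4), with its summit 951 bp downstream of the TSS and 119 bp from the start of the non-coding RNA BC037704. Slc25a37 had no interval within 1 kb of its TSS. The 3 uncoupling-like carriers all exceeded 20-fold, beside 47.0% of all coding genes. Slc25a27 (UCP4) was at 63.3-fold (59.4 to 67.4), Slc25a30 (kidney mitochondrial carrier protein 1) at 60.6-fold and Slc25a14 (UCP5) at 29.3-fold (26.6 to 32.1). Slc25a27 shared a divergent start with Cyp39a1, 176 bp away, and Slc25a14 had only 1 interval in 38.9 kb. Slc25a14 also lies on the X chromosome, and an effect of X copy number was not tested.

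Carriers of less defined substrate had the lowest median, 22.3-fold, and 6 of 9 reached 20-fold, beside 47.0% of all coding genes. Slc25a34 was at 41.6-fold and Slc25a46, a protein of the outer membrane that acts in mitochondrial shape, at 41.2-fold. Slc25a35 was at 35.6-fold, Slc25a45 at 29.9-fold, Slc25a53 at 22.3-fold (20.02 to 24.8) and Slc25a48 at 22.1-fold (19.8 to 24.5). The starts of Slc25a43, at 7.40-fold (6.10 to 8.89), and Slc25a47, at 2.82-fold (2.04 to 3.79), were low, and Slc25a54 had none. Slc25a54 had a single interval of 207 bp in intron 2, at 2.36-fold (1.65 to 3.26), near the lowest fold enrichment in the whole list, 1.70-fold.

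Members that neighbour each other on a chromosome did not have like values. Slc25a29 and Slc25a47 overlap by 230 bp on opposite strands of chromosome 12, and 1 interval of 10410 bp served both under the window rule, at 69.5-fold, with its summit 306 bp from the TSS of Slc25a29 and 15126 bp from the canonical TSS of Slc25a47. A further annotated start of Slc25a47, of a transcript with no defined coding sequence, lies only 77 bp from this summit. Slc25a41 and Slc25a23, 2050 bp apart on the same strand of chromosome 17, were at 2.03-fold and 62.9-fold. Slc25a54 and Slc25a24, 6312 bp apart on chromosome 3, had no interval and 19.5-fold. Slc25a43 and Slc25a5, 17955 bp apart on the X chromosome, were at 7.40-fold and 36.9-fold. A coding TSS on the other strand lay within 1 kb in 5 of 47 members, beside 8.85% of all coding genes, a share near the background. Those 5 were Slc25a11, Slc25a23, Slc25a27, Slc25a32 and Slc25a40.

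The Slc25a37 start lies in duplicated sequence. Every word of 50 bases, the length of the reads, was looked up in GRCm39 on both strands. Within 1 kb of the Slc25a37 TSS, 100% of 1952 words occurred more than once, beside a median of 0% over members and 12.6% in Slc25a41, the only other member over 10%. The 200 bases around the TSS had 1 further exact copy on the same chromosome, in the annotated coding gene Gm16867. No interval came within 1 kb of either copy, and the nearest lay 30746 bp from the Slc25a37 copy and 187388 bp from the Gm16867 copy. Only reads that mapped uniquely were kept by the authors, and 2 exact copies of a start cannot be separated by such reads.

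The repeat ended close to the first interval of Slc25a37. From 3 kb upstream of the gene to the summit nearest its TSS, 30944 bp into the gene, 99.7% of 33895 words were repeated. From that summit to the end of the gene, 0.187% of 12321 words were. By the choice of this point, all 7 intervals of Slc25a37 have their summits at or past it. Of these intervals, 6 were between 1.83-fold and 3.21-fold. The strongest, 23.2-fold (20.9 to 25.8), lay 43463 bp downstream of the TSS, just past the end of the gene and 14 bp from the start of the non-coding RNA Gm63445. At the Slc25a37 start no read of 50 reference bases could map to a single place, whereas at Slc25a31 and Slc25a54, the other members without an interval there, 0% of words within 1 kb of the TSS were repeated.

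**Figure D3:**
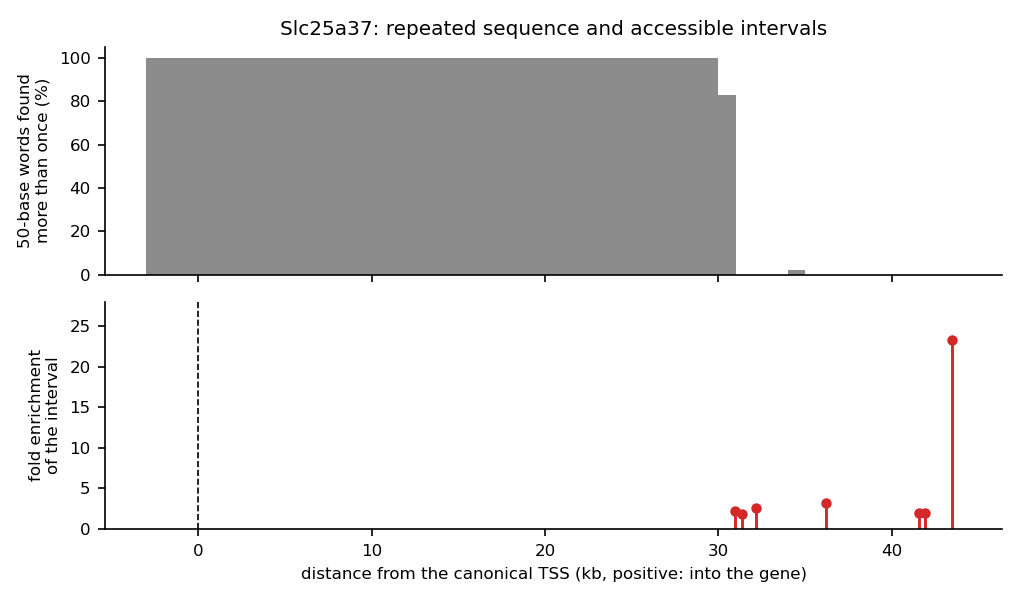
Share of 50-base words that occur more than once in the genome, per kb (top), and the fold enrichment of each interval of Slc25a37 at its summit (bottom), both against the distance from the canonical TSS in kb. The first 30 kb of the gene are 100% repeated and hold no interval, and all 7 intervals lie in the remaining, mostly unique stretch.

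The share of CpG dinucleotides at the start went with the value at the own TSS. The ratio of observed to expected CpG was taken over 500 bases on either side of the TSS, and starts with a ratio of at least 0.6 are called CpG-rich. By this measure 29 of 47 members (61.7%) were CpG-rich, beside 47.7% of all coding genes. Of the 29, 27 were at least 20-fold at the own TSS, beside 79.0% of all CpG-rich genes. The 2 others were Slc25a31, with a ratio of 0.753, and Slc25a37, with 0.718. The median over CpG-rich members was 50.2-fold and over the 18 CpG-poor members 24.4-fold. Across the 47 members Spearman's rho was 0.571, and across all coding genes 0.743, where both measures share the same start and the points are genes of 1 pool.

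CpG-poor carrier starts were often accessible. Of the 18 CpG-poor members, 10 were at least 20-fold, beside 17.9% of all CpG-poor genes. Slc25a34, with a ratio of only 0.214, was at 41.6-fold, Slc25a45 (0.318) at 29.9-fold and Slc25a44 (0.533) at 49.0-fold. Low values came with equally low ratios in Slc25a18 (0.218), Slc25a47 (0.235) and Slc25a41 (0.238). Of the 8 CpG-poor members with a ratio of at least 0.5, 7 were at least 20-fold, and Slc25a24 was just below at 19.5-fold. Of the 10 with a lower ratio, 3 were, Slc25a17 at 37.6-fold beside Slc25a34 and Slc25a45. The shares of all coding genes in these narrower ranges were not computed, so the counts describe the members only. Spearman's rho over these 18 members was 0.439, given as a description over genes of 1 pool.

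**Figure D4:**
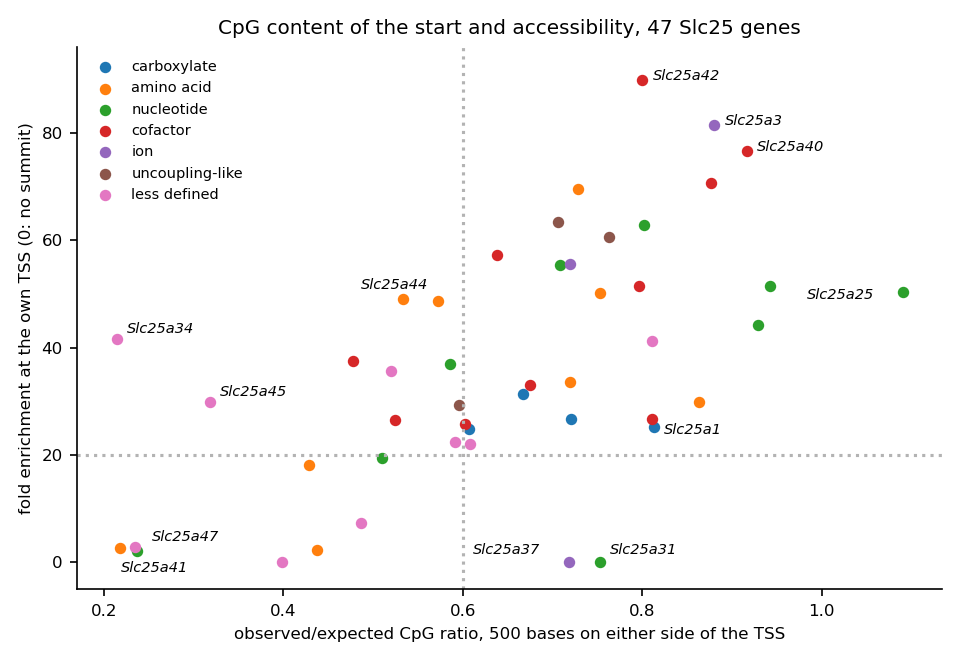
Observed to expected CpG ratio of the 1001 bases around the TSS (horizontal) against fold enrichment at the own TSS (vertical, 0 where there was no summit) for the 47 members, coloured by transported class, with dotted lines at a ratio of 0.6 and at 20-fold. In the CpG-rich part Slc25a31 and Slc25a37 alone lie below 20-fold, and in the CpG-poor part 10 of 18 members lie above it. The 0 of Slc25a37 is a missing value, since its start lies in duplicated sequence.

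Among 13 short motifs, the GC box and the CCAAT box were the common ones at carrier starts. In RefSeq promoters of GRCm38.p6, which run from 250 bases before to 50 after a start and covered 36 members with 46 promoters, 82.6% held a GC box (69.3% to 90.9%), beside 50.5% of 18909 coding promoters. In the 201 bases around the summit at the own TSS the share was 68.2% of 44 members (53.4% to 80.0%), beside 57.7% of all. The CCAAT box was in 52.3% of these member windows (37.9% to 66.2%), beside 30.1% of all, and in 47.8% of RefSeq promoters, beside 37.8%. Slc25a42, Slc25a30 and Slc25a34 held it in the stretches printed above.

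Motifs of factors known for mitochondrial and tubule genes were not found in these windows. The ERR half-site (TNAAGGTCA), the NRF1 site (GCGCATGCG), the HNF1 site (GTTAATNAT), the HNF4 site (CAAAGTCCA) and the DR1 site (GGTCAAAGG) had 0 matches in RefSeq promoters of members and 0 around summits at the own TSS. In all coding promoters these exact letters were themselves rare, at 0.984%, 2.58%, 0.603%, 0.502% and 0.291%. The upper Wilson limit for 0 of 46 promoters was 7.71%, so a share as low as in all genes was not detectable. Around the strongest summit in the gene window, only the HNF4 letters of these sites matched, in 1 of 46 members, Slc25a43 (2.17% beside 0.619%). The E-box was in 17.4% of member promoters (9.09% to 30.7%), beside 8.35%, and its genes included Slc25a1, Slc25a13 and Slc25a33. Around the summit at the own TSS its share was 11.4% (4.95% to 24.0%), beside 6.92%, with Slc25a33 but neither Slc25a1 nor Slc25a13 among the genes. The sterol regulatory element (TCACNCCAC) was in 1 RefSeq promoter, that of Slc25a18, and in 1 summit window, that of Slc25a26. These shares, 2.17% beside 1.24% and 2.27% beside 0.725%, rest on 1 gene each. The ETS site was in 4 summit windows (9.09%), those of Slc25a11, Slc25a20, Slc25a26 and Slc25a46, beside 6.20% of all, and in 2.17% of RefSeq promoters, beside 5.65%.

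Intervals were most numerous in a few long carrier genes, though not always dense in them. The 5 members with the most intervals were Slc25a13 with 62, Slc25a21 with 41, and Slc25a12, Slc25a26 and Slc25a48 with 18 each. These genes are long, from 36.5 kb in Slc25a48 to 485 kb in Slc25a21. Per 10 kb of window, Slc25a48 had 4.56 intervals, Slc25a13 3.44, Slc25a12 1.80, Slc25a26 1.66 and Slc25a21 0.84, beside a median of 2.68 over members and 1.86 over all coding genes. The densest member was Slc25a41 at 6.73. Of all intervals of members, 59.5% (264) had their summit over 3 kb from any annotated start, beside 64.2% of all intervals in the list. These distal intervals were spread over 34 members. Their median height was 2.49-fold, the same value as over all such intervals, and 10.2% of them reached 10-fold, beside 8.18%.

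The strongest distal intervals by this 3 kb rule belonged to Slc25a48, Slc25a13, Slc25a15 and Slc25a21. An interval of Slc25a10 in exon 11, at 35.6-fold, fell outside the rule, with its summit 2881 bp from an annotated start. In Slc25a48, linked to choline import, the summit 3672 bp upstream of the TSS was at 38.9-fold, above the 22.1-fold at the start itself. The interval of this summit also covered the start. Intron 4 of Slc25a48 held further summits of 21.3-fold and 16.8-fold. In Slc25a13, an interval of 3952 bp in intron 4, at chr6:6133597-6137548, was at 33.2-fold, 82131 bp into the gene. In Slc25a15 an interval in intron 2, at chr8:22878910-22882226, was at 24.1-fold, and in Slc25a21 one in intron 2, at chr12:56951009-56954573, was at 21.2-fold, 291620 bp from the start. Slc25a21 is so long that the nearest coding TSS to this summit was that of Pax9, 210223 bp away. Which gene such an interval acts on was not tested.

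Other carriers had distal summits near 20-fold. An interval 4975 bp upstream of the canonical Slc25a3 TSS was at 19.1-fold, within the annotated gene, whose earliest start lies further upstream. Slc25a42 had 19.1-fold in exon 6 and 17.0-fold in intron 2, the latter with the HNF4 letters within 100 bases of its summit, and Slc25a30 had 17.2-fold in intron 2. In Slc25a43 the strongest interval lay in intron 3, 18855 bp from the TSS, at 13.4-fold (11.6 to 15.4), above the 7.40-fold at the start.

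The strongest interval was wholly beyond 1 kb of the TSS in 5 of 47 members, beside 24.9% of all coding genes. Those 5 were Slc25a37, Slc25a41, Slc25a43, Slc25a47 and Slc25a54. By the summit in place of the interval the number was 11 of 47, beside 30.7% of all coding genes, with Slc25a1, Slc25a10, Slc25a18, Slc25a22, Slc25a39 and Slc25a48 added. In the added members the strongest interval came within 1 kb of the TSS but had its highest summit further away.

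Start and distal sequence are shown for Slc25a13 and Slc25a3, as the 120 bases at the TSS and then the bases on either side of the distal summit, and the distal summit alone for Slc25a15, in GRCm39 on the strand of the gene, with capitals for the same motifs and for the sterol regulatory element.
Slc25a13 chr6:6217285-6217404 (minus strand): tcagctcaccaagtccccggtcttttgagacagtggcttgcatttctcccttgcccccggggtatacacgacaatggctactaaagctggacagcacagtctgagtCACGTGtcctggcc
Slc25a13 chr6:6135103-6135223 (minus strand): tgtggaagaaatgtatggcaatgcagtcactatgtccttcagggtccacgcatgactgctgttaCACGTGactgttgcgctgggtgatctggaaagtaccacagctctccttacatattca
Slc25a3 chr10:90959856-90959975 (minus strand): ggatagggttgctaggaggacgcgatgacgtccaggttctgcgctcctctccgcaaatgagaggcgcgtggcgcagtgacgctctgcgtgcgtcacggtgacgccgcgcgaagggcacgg
Slc25a3 chr10:90964780-90964900 (minus strand): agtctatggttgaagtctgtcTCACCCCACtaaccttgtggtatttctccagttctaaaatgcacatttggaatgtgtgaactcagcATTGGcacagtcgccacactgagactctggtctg
Slc25a15 chr8:22881168-22881288 (minus strand): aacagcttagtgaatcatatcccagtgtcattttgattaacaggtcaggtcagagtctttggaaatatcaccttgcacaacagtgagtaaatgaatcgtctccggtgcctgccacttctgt
The start of Slc25a13 held an E-box from 4 bases before its TSS, and its intron 4 summit held another within 4 bases. The distal Slc25a3 summit held a match to the sterol regulatory element and a CCAAT box, and the Slc25a15 summit had none of the 13 motifs.

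**Figure D5:**
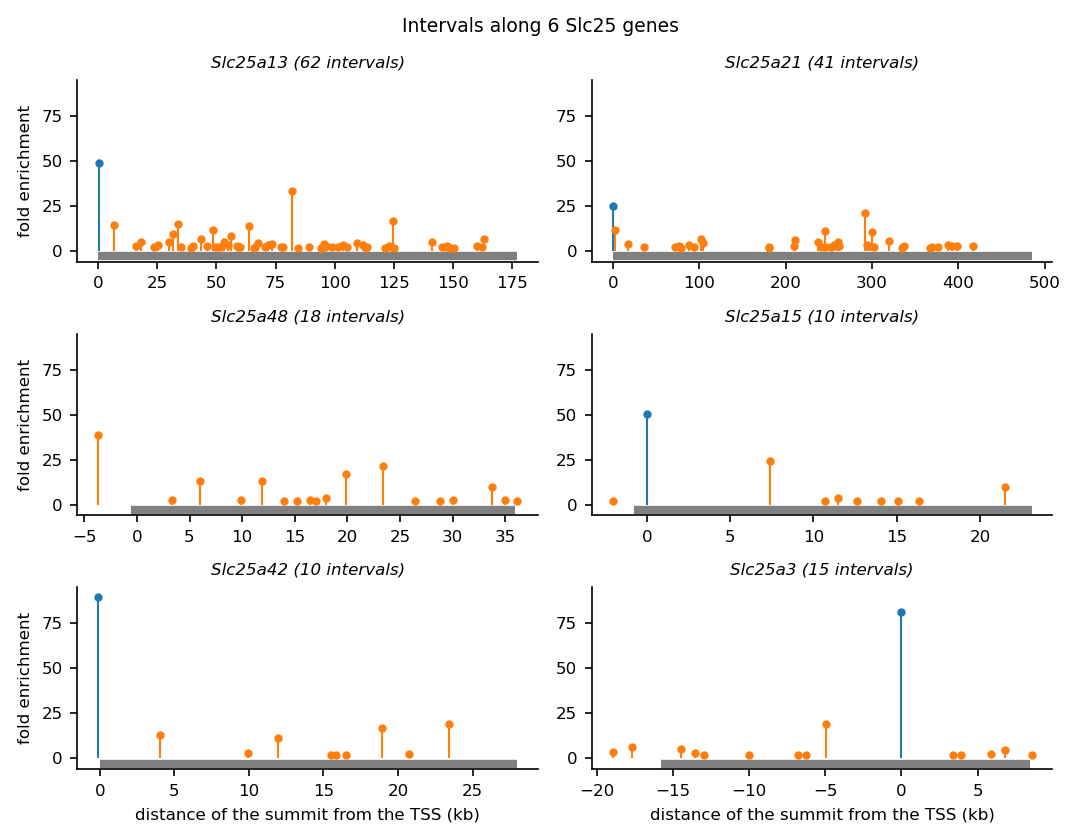
Intervals along 6 carrier genes, each at the distance of its highest summit from the canonical TSS in kb (horizontal) and its fold enrichment (vertical, linear). Blue marks an interval whose highest summit lies within 1 kb of the TSS, orange any other, and the grey bar is the annotated gene; in Slc25a48 the start lies inside the upstream interval (38.9-fold), so it has no blue point.

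Carriers with the same fold but other names, and other mitochondrial transporters, gave a similar spread. Of 5 such carriers, 3 were at least 20-fold at the own TSS, beside 47.0% of all coding genes. These were Mtch2 at 51.4-fold, Mtch1 at 40.2-fold and the uncoupling protein Ucp2 at 24.4-fold. Ucp1, the thermogenic protein of brown fat, was at 2.62-fold, and Ucp3, of muscle, at 3.21-fold. Of 10 other mitochondrial transport genes 9 reached 20-fold, beside the same 47.0% of all coding genes, with the pyruvate carrier subunits Mpc2 at 93.8-fold and Mpc1 at 65.5-fold. The low starts of Slc25a2, Slc25a18, Slc25a41 and Slc25a47, from 2.03-fold to 2.82-fold, stood near those of Ucp1 and Ucp3.

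The kidney label was checked against marker genes of several tubule segments, some of which also run outside the cortex. All 12 tubule markers had a summit at their own TSS, from 3.47-fold for Pvalb to 33.1-fold for Lrp2, the megalin gene of the proximal tubule. Of all coding genes, 75.8% had an interval within 1 kb of the TSS. The median of the tubule markers was 7.95-fold, below that of the Slc25 genes and also below the 17.0-fold of all coding genes. Of 10 genes listed as markers of other organs, 5 had such a summit. The highest was Vil1 at 15.3-fold, but this villin gene of brush borders is also expressed in the proximal tubule, so it marks no other organ here. The next was Ins2 at 3.40-fold, and Myh6, Sftpc, Krt5, Myod1 and Prm1 had none. In the whole gene window the lists overlapped. The strongest interval ran from 4.26-fold for Pvalb to 38.2-fold for Slc12a3 in tubule markers. In the markers of other organs it ran from no interval for Prm1 to 21.0-fold for Alb.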

How the data were processed

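ATAC-seq had been done on mouse kidney, with 50000 nuclei per sample, and libraries were grouped by the genotype in their labels. As their methods state, the authors used fastp for trimming and Bowtie2 2.3.4.3 for alignment to mm39, kept uniquely mapped reads without duplicates, ran MACS3 3.0.0 at a q of 0.05, and took out blacklisted regions with BEDTools 2.29.1. Summit positions depend on the read shift and extension that they set for the caller. The deposited peak list gives for each summit the fold enrichment over background, a ratio computed by the authors, and the -log10 q of the authors' caller. The deposited list of unfiltered summits was not used. The depth of single libraries is unknown from these values, so no replicate error could be given.

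The list held 749750 summits in 279569 distinct intervals, and an interval is given by its summit of highest -log10 q. Genes came from GENCODE M39 on GRCm39, the build of the list, and coordinates count from 1. Members were matched by gene name, their window ran from 3 kb upstream to the gene end, and the canonical TSS was that of the Ensembl canonical transcript. Genes with no interval count as 0 in medians. Counting intervals are exact Poisson intervals and shares have Wilson intervals, both at 95%. Motifs were matched exactly on both strands. RefSeq promoters matched 36 members and are on GRCm38.p6, so only their letters were used. Members are named in their role group, apart from 1 that is not reported here, and full values are given for Slc25a1, the 8 highest and 8 lowest members, those without an interval at their TSS or with a distal strongest interval, the 5 with the most intervals, the 5 strongest distal intervals and paralog pairs. The members, lists and rules were chosen with earlier results of these data known, and the value at the own TSS and the CpG analysis were added after the intervals were seen. No test was run, since the pool has no replicates. The scripts recovered all 6 kinds of simulated case. Scripts ran under Python 3.11.15 and used scipy 1.17.1, pandas 2.3.3, numpy 2.4.6, matplotlib 3.10.9 and pysam 0.24.0.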

Additional observations from a re-analysis of the deposited data

How the results depend on the processing

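No paired analysis was possible because the libraries were pooled in 1 peak call. Of 32 alternative values of the main counts and of the median, 29 stayed within 1.5 times the main count or within the 95% order-statistic interval of the median (33.1 to 50.2-fold). A q under 1e-05 left 254 intervals at members in place of 442. A window of 10 kb on either side raised the members whose strongest interval lies beyond 1 kb of the TSS from 5 to 11, and measuring from the summit, chosen after seeing the data, also gave 11. The median of the strongest fold enrichment ranged from 33.5-fold, with the own TSS in its place, to 41.2-fold. The GC box share fell from 82.6% in RefSeq promoters to 65.2% around the strongest summit and 68.2% around the summit at the TSS, and 5 of 26 motif values moved past the interval of the main share. Other CpG ratios, also chosen after seeing the data, gave 37 CpG-rich members at 0.5, 34 of them at least 20-fold, and 16 at 0.75, of which 15 were. The shares of all coding genes at these other ratios were not computed. The pool limits every value to counting error, and neither the spread between mice nor an effect of genotype could be measured.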
